A study of Mus musculus with 12 samples.

Results

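A set of 7 genes that skeletal muscle cells are not known for was followed across all 12 arrays of the study. They are Hba-a1, the adult alpha-globin of red blood cells, the neuronal genes Nefm, Gap43 and Map2, the retinoic acid binding protein gene Crabp1, and the epidermal genes Lce1f and Lce1g. They were read by 8 probes, 2 of them for Nefm, out of 45281 probes on the array, and counted as 7 of the 10346 genes tested. The genes were picked because several of them rose after knockdown of BRG1 or BAF60c. The reason given does not state the reference group, so scrambled siRNA or the untransfected cells may have served. Comparisons that involve the BRG1 or BAF60c knockdown or the scrambled siRNA are therefore a description, with no test.

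The cells were C2C12, a mouse myoblast line that withdraws from the cell cycle and forms myotubes when serum is withdrawn. There were 6 groups of 2 Illumina BeadChip arrays. Cells in differentiation medium had received siRNA pools against BRG1 (siBRG1), BAF60c (siBAF60c) or BAF60b (siBAF60b), or a scrambled siRNA (siScramble), and untransfected wild-type cells were in differentiation medium (DM) or growth medium (GM). Per the labels, the siRNA was given in medium with 15% serum, the shift to the ITS differentiation medium followed 36 h later, and RNA was taken after a further 18 h. One protocol text stands beside every sample and the transfection entry of the wild-type cells reads "control", and the sources used here do not say whether those cells met a transfection reagent. No label says that the 2 replicates of a group were separate cultures, so the spread behind each p-value is the one between these arrays and may be technical only.

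BRG1 is one of the alternative ATPases of the SWI/SNF (BAF) complex, which moves nucleosomes to open or close chromatin. BAF60b and BAF60c are alternative subunits of the same complex, and BAF60c binds the myogenic factor MyoD at muscle genes. The complex works in other lineages with other subunits, including neurons, erythroid cells and keratinocytes, where globin, neurofilament and cornified envelope genes are part of the normal programme. The targeted transcripts stood at 53.0% of siScramble for Smarca4 (BRG1) in siBRG1 cells, 52.3% for Smarcd3 (BAF60c) in siBAF60c cells and 34.1% for Smarcd2 (BAF60b) in siBAF60b cells. Target arrays did not overlap those of siScramble, and the limma p-values adjusted over all genes were 0.515, 0.858 and 0.679. The knockdowns were thus partial at the RNA level.

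Promoters are shown for the 3 genes called below in DM against GM or in siBAF60b against DM, so that the sequence before each start can be seen beside its values. RefSeq promoters on GRCm38.p6, from 250 bases before to 50 bases after the start, were at hand for 4 of the 7 genes, Crabp1 being the other one. They read 5′ to 3′ on the strand of the gene, and capitals mark TATAA, the core of a start-site box, and CANNTG, an E-box of the type bound by MyoD and other helix-loop-helix factors.
Hba-a1, chr11:32283422-32283721, plus strand: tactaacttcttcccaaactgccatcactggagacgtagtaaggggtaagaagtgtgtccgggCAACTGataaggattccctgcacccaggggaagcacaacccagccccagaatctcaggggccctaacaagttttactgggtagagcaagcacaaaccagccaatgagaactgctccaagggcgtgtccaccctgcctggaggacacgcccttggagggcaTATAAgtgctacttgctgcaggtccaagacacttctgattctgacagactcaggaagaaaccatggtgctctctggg
Map2, chr1:66175079-66175378, plus strand: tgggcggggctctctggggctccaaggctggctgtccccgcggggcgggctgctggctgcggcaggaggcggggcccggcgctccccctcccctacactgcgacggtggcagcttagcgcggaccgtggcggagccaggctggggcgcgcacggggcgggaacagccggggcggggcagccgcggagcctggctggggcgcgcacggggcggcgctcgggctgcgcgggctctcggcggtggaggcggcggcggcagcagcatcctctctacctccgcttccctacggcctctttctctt
Lce1g, chr3:92752289-92752588, minus strand: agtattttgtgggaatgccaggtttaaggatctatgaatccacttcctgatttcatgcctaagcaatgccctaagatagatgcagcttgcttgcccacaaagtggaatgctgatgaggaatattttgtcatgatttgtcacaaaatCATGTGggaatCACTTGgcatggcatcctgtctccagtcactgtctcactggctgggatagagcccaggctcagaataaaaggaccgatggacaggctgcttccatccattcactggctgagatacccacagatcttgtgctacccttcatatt

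The 3 windows differ in kind. In the Hba-a1 window, TATAA lay 27 bases before the start and the E-box at -187. It also held GATAA at -182, the letters of a GATA factor site, and CACCC at -167 and -60, the letters read by Krüppel-like factors. The Map2 window held none of the 6 motifs searched and was rich in CpG, with 37 CpG and 77.7% GC. Only 5.58% of all promoters in the table had as many CpG. The Lce1g window held E-boxes at -104 and -93, no TATAA, and 1 CpG, with 45.7% GC. Over all 32851 promoters of the same length, TATAA was in 24.9%, CANNTG in 72.3%, GATAA in 25.4% and CACCC in 57.5%, while CAGCTG was in 16.3% and TGANTCA in 7.81%. Neither CAGCTG, the E-box form MyoD favours, nor TGANTCA, the AP-1 type, was found in the 4 windows. Both strands were searched, CAGCTG is a case of CANNTG, and GATAA can run into the E-box as it does in Hba-a1. The motifs were picked with the sequences in view, and a match is no evidence that a factor binds. The window of Hba-a2, the neighbouring alpha-globin gene, was identical to that of Hba-a1 over 297 bases at an offset of 3. The Hba-a1 probe may read transcripts of both genes, since they are near-identical copies, and the value given for Hba-a1 is uncertain in that respect.

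Levels below are normalized log2 signals from limma's neqc. A probe counts as detected on an array at a detection p under 0.05, and the lowest detected level ranged from 5.20 to 5.53 over the 12 arrays, so values near 5 carry no level. Across arrays, 28.1% to 34.04% of probes were detected and the median raw signal was 119.1 to 148.7. The 2 DM arrays were less alike than the other pairs, with a correlation of 0.945 and 1836 genes over 1 apart on the log2 scale, against 0.979 to 0.988 and 108 to 462 genes in the other 5 groups. The arrays sat on 3 BeadChips, of which siBRG1 and siScramble shared only the first, siBAF60b and DM only the second, and DM and GM the second and the last. All 8 probes passed the filter of detection on 2 or more arrays. Nefm, Crabp1 and Lce1g passed it only through the groups where they stood high, which is why no count over the members is read as support.

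Hba-a1 was detected on all 12 arrays. Its level was 10.91 and 11.51 on the siBRG1 arrays, 11.37 and 11.11 on the siBAF60c arrays, and 9.80 and 9.68 on the siBAF60b arrays. It was 9.05 and 9.25 on the siScramble arrays, 6.13 and 6.29 in untransfected DM cells and 5.68 and 5.65 in GM cells. The siBRG1 and siBAF60c arrays overlapped each other, and every other step down this order was clear of overlap. All 4 transfected groups stood far above the untransfected ones, the scrambled siRNA included.

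Nefm encodes the medium neurofilament subunit of axons. The probe used for the gene gave 6.82 and 6.66 in siBRG1 cells and 6.95 and 6.37 in siBAF60c cells. It gave 4.86 and 4.85 in siBAF60b cells, 4.59 and 5.13 in siScramble cells, 4.59 and 4.60 in DM cells and 5.37 and 4.72 in GM cells. It was detected on the 4 siBRG1 and siBAF60c arrays and on GM replicate 1 alone among the rest. The second Nefm probe followed in siBAF60c, with 6.77 and 6.20, but in siBRG1 it read 5.24, not detected, and 6.47. Outside these groups the second probe lay between 4.48 and 5.22 and was not detected, except for 5.67 on GM replicate 1, where its other array read 4.94. The probes therefore disagreed on siBRG1 replicate 1.

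Gap43 encodes a membrane protein of growth cones. It had 7.25 and 7.17 in siBRG1 cells, 7.85 and 7.78 in siBAF60c cells and 6.20 and 6.59 in siBAF60b cells. It had 6.16 and 6.76 in siScramble cells, 4.78 and 5.57 in DM cells and 5.47 and 5.93 in GM cells, and only DM replicate 1 was below detection. The siBAF60c arrays were above all others, the siBRG1 arrays were next, and siBAF60b overlapped siScramble, as did DM with GM.

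Map2 encodes a microtubule protein of dendrites. It had 6.93 and 6.59 in siBRG1 cells, 7.97 and 7.75 in siBAF60c cells and 7.56 and 7.27 in siBAF60b cells. It had 8.16 and 7.59 in siScramble cells, 5.98 and 5.78 in DM cells and 4.83, not detected, and 5.48 in GM cells. The scrambled siRNA group and siBAF60c overlapped at the top of the order, and siBRG1 was the lowest transfected group. Of the genes chosen as raised on loss of the complex, Map2 was the one that lay below siScramble after BRG1 knockdown.

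Crabp1 encodes a cytoplasmic carrier of retinoic acid. Its level was 6.48 and 6.49 in siBRG1 cells. It was 4.93 and 4.78 in siBAF60c cells, 4.67 and 4.78 in siBAF60b cells, 4.97 and 4.74 in siScramble cells, 4.92 and 5.54 in DM cells and 4.68 and 5.17 in GM cells. Detection was limited to both siBRG1 arrays and DM replicate 2, so the order of the other groups is one of background.

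Lce1f and Lce1g encode late cornified envelope proteins, which are laid down in the outer epidermis and lie next to each other on chromosome 3 with 0 genes between them in RefSeq's GRCm38.p6 annotation. Lce1f had 6.59 and 7.42 in siBRG1 cells, 5.80 and 4.67 in siBAF60c cells and 5.87 and 4.90 in siBAF60b cells. It had 4.91 and 4.84 in siScramble cells, 5.05 and 4.92 in DM cells and 5.23 and 5.33 in GM cells. Both siBRG1 arrays stood clear of the rest, and among the others only replicate 1 of siBAF60c, siBAF60b and GM was detected. Its neighbour behaved differently, with 5.10, not detected, and 5.65 for Lce1g in siBRG1 cells and no detection on any array of siBAF60c, siBAF60b, siScramble or DM, where values ran from 4.45 to 4.97. In GM cells Lce1g had 8.91 and 8.47, the 2 highest values of the gene by far.

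**Figure D1:**
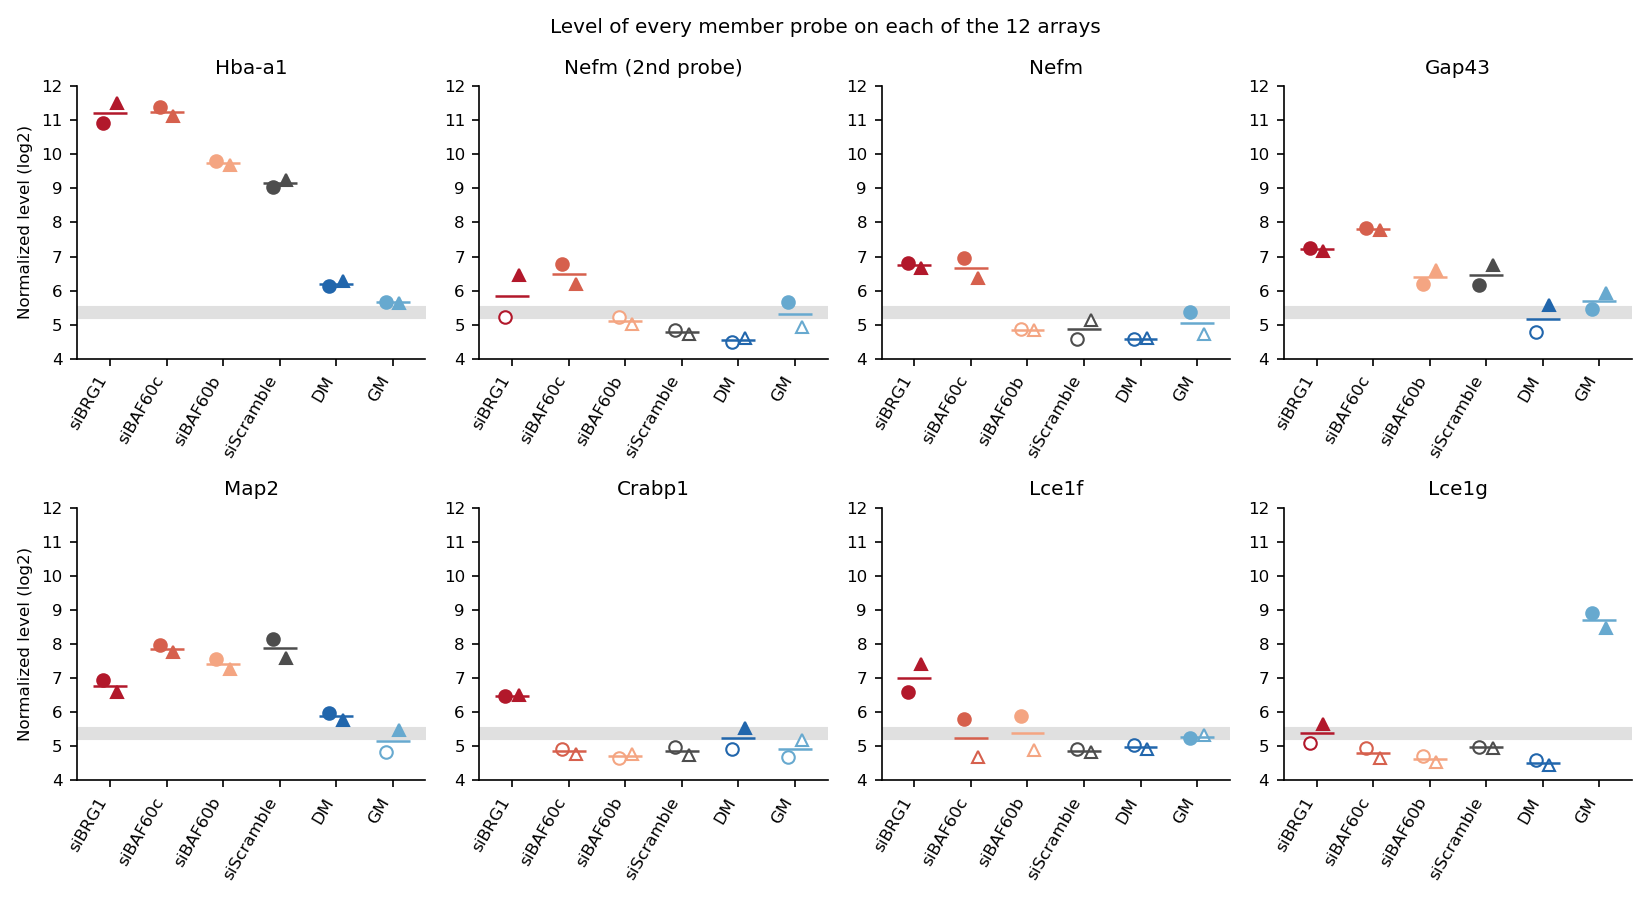
Normalized log2 level of each of the 8 probes on every array, with groups along the x axis, circles for replicate 1, triangles for replicate 2, filled symbols for detected values and a line at each group mean. The grey band spans the lowest detected level over the arrays, 5.20 to 5.53; Hba-a1 is above it everywhere, while Crabp1 and Lce1f leave it clearly in siBRG1 cells and Lce1g in GM cells.

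How the genes stood in untransfected cells after the shift out of growth medium was tested between DM and GM, groups that the stated reason for the choice does not name, though the genes were chosen with earlier results of these arrays known. Lce1g fell by 4.17 on the log2 scale (SE 0.28, limma adjusted p = 3.67e-07, lower on both DM arrays, 2 arrays per group). Since DM lay below detection, Lce1g was at least 9.11-fold lower in DM cells than in GM cells on the background-corrected scale, from means of 4.52 and 8.69. With no background correction the log2 difference was -2.09. Lce1g passed the detection filter only through its GM arrays, so the filter in part fixes that it differed here. It was called without a detection filter as well. The call was 1 of 7 members, where 19.4% of all genes tested were called and 8.93% were called lower. Within the BeadChips, Lce1g fell by 4.32 on the second and fell by 4.02 on the last, on the log2 scale.

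The other 6 members did not pass in DM against GM. For Hba-a1 the difference was 0.54 (95% interval -0.04 to 1.13, limma adjusted p = 0.182), and under median scaling in place of quantile normalization it was -0.06. For Map2 it was 0.73 (0.08 to 1.38, limma adjusted p = 0.111), on arrays that did not overlap. Gap43 gave -0.52 (-1.21 to 0.17) and Nefm -0.45 (-1.11 to 0.21), while Crabp1 gave 0.30 (-0.31 to 0.91) and Lce1f -0.30 (-1.15 to 0.56), the last 3 being near or below detection. The width of these intervals, from 2 arrays a group, does not show that the genes stayed level.

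BAF60b knockdown cells were then set against DM cells, a comparison whose means used neither siBRG1, siBAF60c nor siScramble. DM may have been the reference when the genes were chosen, so this comparison may not be free of that choice. The spread behind its p-values came from all 6 groups, those included. The comparison differs in knockdown and in transfection at once, which cannot be told apart. Hba-a1 averaged 9.74 ± 0.09 in siBAF60b cells and 6.21 ± 0.11 in DM cells (SD, n = 2 each). It rose by 3.53 on the log2 scale (SE 0.27, limma adjusted p = 2.93e-05), which is 11.6-fold on the background-corrected scale, and on the shared BeadChip the difference was 3.55. With no background correction the log2 difference of Hba-a1 was 2.29, and with the authors' deposited values it was 2.33. Map2 averaged 7.42 ± 0.21 in siBAF60b cells and 5.88 ± 0.14 in DM cells (SD, n = 2 each). It rose by 1.54 (SE 0.30, limma adjusted p = 0.0141), with 1.29 on the shared BeadChip. These were 2 of 7 members called, where 3.45% of all genes were called and 1.72% were called higher.

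The Map2 call did not hold in every setting, and with only the 2 groups in the fit it was lost (limma adjusted p = 0.15). It was lost without siBAF60b replicate 1 (1.39, limma adjusted p = 0.153), without siBAF60b replicate 2 (1.69, limma adjusted p = 0.0824) and without DM replicate 2 (1.44, limma adjusted p = 0.0663). Gap43 had 6.40 ± 0.28 in siBAF60b cells and 5.18 ± 0.56 in DM cells (SD, n = 2 each), a difference of 1.22 that just missed the threshold (SE 0.32, limma adjusted p = 0.0532). It passed without DM replicate 2 (1.61, limma adjusted p = 0.0309), with the replicate number as a block (limma adjusted p = 0.0303), and with the BeadChip as a fixed block (1.46, limma adjusted p = 0.0399) or as a random one (1.28, limma adjusted p = 0.033). Nefm differed by 0.26 (-0.40 to 0.92) and Lce1g by 0.11 (-0.50 to 0.71), both undetected on all 4 arrays, and Lce1f by 0.41 (-0.45 to 1.26). Crabp1 differed by -0.51 (-1.12 to 0.10), with 1 DM array detected. Hba-a1 and Map2 thus stood above untransfected DM in cells whose siRNA targeted neither BRG1 nor BAF60c. The transcripts of both were nevertheless lower on average in siBAF60b than in DM cells, though neither was called. Smarca4 (BRG1) differed by -1.09 (limma adjusted p = 0.115) and Smarcd3 (BAF60c) by -0.71 (limma adjusted p = 0.258). The scrambled siRNA group stood 2.94 above DM for Hba-a1, 1.99 for Map2 and 1.28 for Gap43. This is a description because siScramble may have been used to choose the genes.

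**Figure D2:**
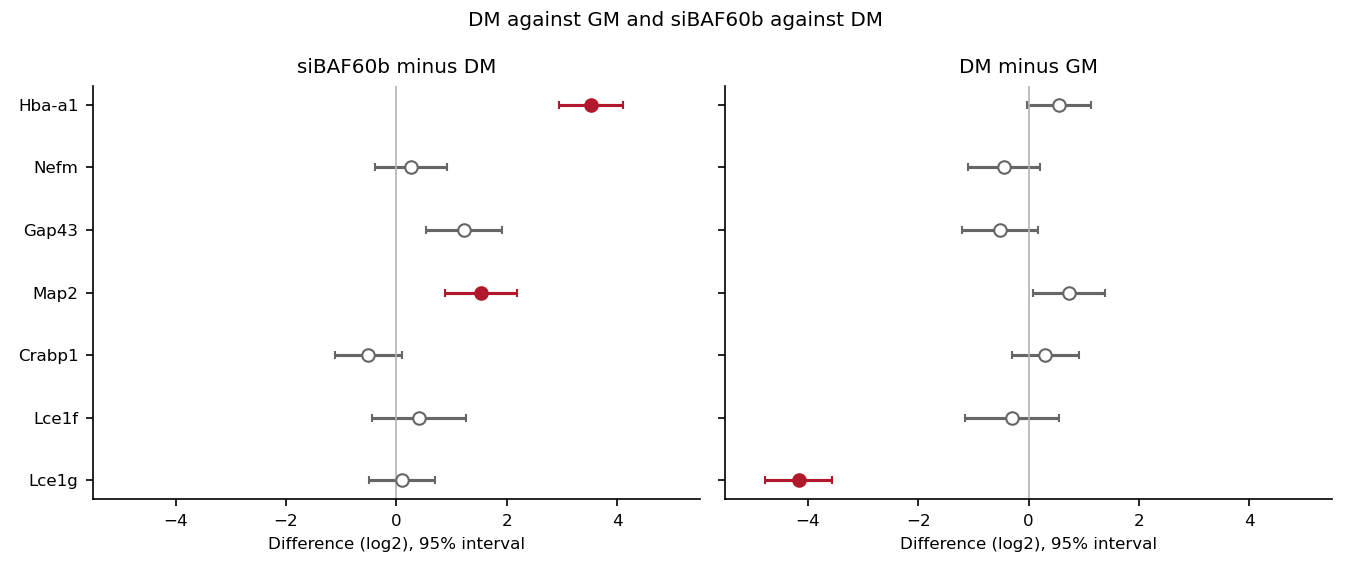
Log2 difference with its 95% interval for each of the 7 genes, siBAF60b minus DM on the left and DM minus GM on the right, where filled red points passed a limma adjusted p of 0.05. Hba-a1 and Map2 passed on the left and Lce1g on the right; the 2 panels share the DM arrays.

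After BRG1 knockdown, 6 of the 7 genes were above scrambled siRNA, as the choice of genes would give. The differences from siScramble were 2.06 for Hba-a1 and 0.75 for Gap43, on the log2 scale. Where siScramble was below detection, bounds apply: Nefm was at least 2.55-fold, Crabp1 at least 2.13-fold and Lce1f at least 3.06-fold higher in siBRG1 cells. Their fitted log2 differences were 1.88, 1.63 and 2.13, and with no background correction they were 0.68, 0.55 and 0.79. These bounds, and the other "at least" folds against undetected arrays, hold on the background-corrected scale only. Lce1g differed by 0.41 at the edge of detection, and Map2 by -1.11. On the second Nefm probe the difference was 1.06, a bound of at least 1.38-fold. The fit placed 4 of the 7 below the threshold, against 0.28% of all genes and 0.106% in the higher direction, a count that the choice of genes sets. That count was 1 without siBRG1 replicate 1, and 0 without siBRG1 replicate 2, without siScramble replicate 1 or without siScramble replicate 2. On the BeadChip that both groups shared, the differences were 1.86 for Hba-a1, 2.22 for Nefm, 1.09 for Gap43, -1.22 for Map2, 1.51 for Crabp1, 1.67 for Lce1f and 0.12 for Lce1g.

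After BAF60c knockdown the set split. Hba-a1 was 2.09 above siScramble, Nefm at least 2.41-fold (fitted 1.80, and 1.69 on the second probe) and Gap43 1.35 above, on the log2 scale. Map2 at -0.01, Crabp1 at 0.00, Lce1f at 0.36 and Lce1g at -0.17 stayed within 1 of siScramble, the last 3 at or near background. Hba-a1 was the 1 member below the threshold of the fit, as it was the only gene of all those tested (0.00967%), and the call was lost when any 1 of the 4 arrays was left out, with differences of 1.96 to 2.22. Within BeadChips, Hba-a1 differed by 2.32 and 1.86, Nefm by 2.36 and 1.24 and Gap43 by 1.68 and 1.03 on the first and second.

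After BAF60b knockdown, the members lay close to siScramble. Hba-a1 was 0.59 above on arrays that did not overlap, Lce1f 0.51 above on arrays that did, and Map2 -0.46. Nefm at -0.01, Gap43 at -0.06, Crabp1 at -0.13 and Lce1g at -0.34 were near or below 0. Of the 7 members 0 were called by limma, where 0.00967% of all genes were. At an unadjusted p under 0.05 there were 1 of the 7 and 365 of all genes. The comparisons against siScramble share its 2 arrays, so their values stand side by side and are not independent.

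The knockdowns can also be set against each other, again as a description. Crabp1 was at least 2.10-fold higher in siBRG1 than in siBAF60c cells and at least 2.21-fold higher in siBRG1 than in siBAF60b cells. Lce1f differed by 1.76 and 1.61 in the same comparisons, on the log2 scale. Hba-a1 and Nefm differed between siBRG1 and siBAF60c cells by -0.03 and 0.08, on arrays that overlapped. Gap43 and Map2 were lower in siBRG1 than in siBAF60c cells, by differences of -0.60 and -1.10. The genes thus formed no single pattern. Hba-a1, Nefm and Gap43 stood above siScramble with either knockdown, Crabp1 and Lce1f did so on both arrays with BRG1 knockdown, and Map2 and Lce1g did so by less than 1 log2 unit or not at all. These values chose the genes, so they do not test the working name of the set, genes raised on loss of the complex. Map2 was not above siScramble after either knockdown. Lce1g was at or near background in both and highest in GM cells.

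**Figure D3:**
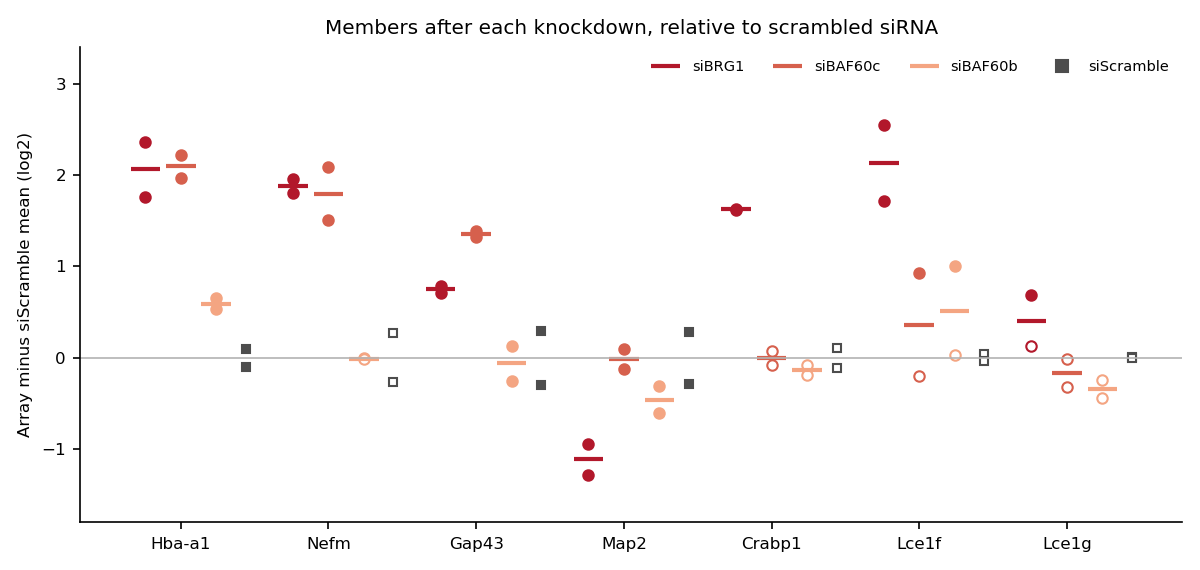
Each array minus the mean of the siScramble arrays (log2) for the 7 genes, with siBRG1, siBAF60c, siBAF60b and siScramble side by side, bars at group means and open symbols for values not detected. Hba-a1 is near 2 in siBRG1 and siBAF60c cells, Map2 is at -1.11 in siBRG1 cells, and Crabp1 and Lce1f are high in siBRG1 cells; the values chose the genes and are a description.

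The correlations between members over the 12 arrays are given as a description, since the arrays share groups, siRNA transfection and BeadChips. Pearson's r was 0.89 between Hba-a1 and Gap43, 0.82 between Nefm and Gap43 and 0.73 between Hba-a1 and Nefm. Map2 had 0.79 with Hba-a1, 0.66 with Gap43 and 0.27 with Nefm. Crabp1 and Lce1f had 0.78 and Nefm and Lce1f 0.62, while the neighbours Lce1f and Lce1g had 0.07. Lce1g had -0.69 with Map2 and -0.53 with Hba-a1. Crabp1 and Lce1g were detected on 3 of the 12 arrays and Nefm and Lce1f on 5, so most of their values are background. Choosing genes that stood high in siBRG1 or siBAF60c cells also favours positive r among them.

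Among all genes, the nearest to each member over these 12 arrays were as follows. For Hba-a1 they were Msrb2, a methionine sulfoxide reductase (r 0.98), and Vgll2, a TEAD cofactor of muscle (r 0.97), with siBAF60b minus DM differences of 1.54 and 2.56. For Nefm they were the cyclin gene Ccnd2 (r 0.90) and 2810025M15Rik (r 0.88). Ccnd2 stood 1.55 above siScramble in siBRG1 cells and 1.31 above it in siBAF60c cells. For Gap43 they were the matrix protein gene Thbs2 (r 0.95) and the cathepsin gene Ctsl (r 0.94), and for Map2 Mgst3, a glutathione transferase (r 0.95), and the dynein chain gene Dync1i1 (r 0.94). Crabp1 lay nearest to Dkkl1 (r 0.93) and St6galnac6 (r 0.89), and Lce1f to the growth factor gene Fgf5 (r 0.87) and Olfr76 (r 0.87). Lce1g lay nearest to Mcmbp (r 0.97) and to Csf1, the macrophage growth factor (r 0.97), which differed by -3.23 between DM and GM. For Nefm, Crabp1, Lce1f and Lce1g these r also rest on member values that are mostly background.

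Other genes of these lineages were described with gene lists written from general knowledge. Against siScramble, limma called 0.28% of all genes in siBRG1 and 0.00967% in each of siBAF60c and siBAF60b, with 835, 477 and 365 of 10346 at an unadjusted p under 0.05. A count of 0 in a short list is near that share and is no result about the list. In DM against GM limma called 19.4% of all genes, and in siBAF60b against DM 3.45%. Of 24 globin, haem and iron genes other than Hba-a1, 18 were on the authors' table and 13 could be tested. By limma 0 of the 13 were called in siBRG1, siBAF60c or siBAF60b cells against siScramble (1 in each at an unadjusted p under 0.05), and 0 in siBAF60b against DM (3 unadjusted). The beta-globin Hbb-bs read 4.99 and 4.90 in siBRG1 cells, 4.89 and 4.98 in siBAF60c cells and 4.84 and 5.43 in siScramble cells, with 1 of these 6 values detected. The embryonic globins Hba-x and Hbb-bh1 and the erythroid haem enzyme Alas2 were detected on no array, and Hbb-y, Gata1 and Klf1 on 1 each. On the siBRG1 and siBAF60c arrays the alpha-globin signal thus stood beside a beta-globin probe that was not detected. Between DM and GM, Alas1, the housekeeping first enzyme of haem synthesis, rose by 1.30 (limma adjusted p = 0.003) and Ppox by 1.08 (limma adjusted p = 0.0435).

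Of 17 erythroid markers, 10 were on the table and 5 were tested. Ank1, an ankyrin that muscle also makes, rose by 2.56 in DM over GM (limma adjusted p = 9.23e-05), and Epor, the erythropoietin receptor, by 1.30 (limma adjusted p = 0.00396). In the 3 knockdowns against siScramble and in siBAF60b against DM, 0 of the 5 were called by limma, with 0 to 2 at an unadjusted p under 0.05. The summed linear level of the erythroid markers was 719 to 803 on the siBRG1 arrays, 793 to 1054 on the siBAF60c arrays, 1070 to 1383 on the siBAF60b arrays, 1176 to 1218 on the siScramble arrays, 1091 to 1428 in DM and 429 to 468 in GM. Ank1 had the highest level of the 5 tested markers on every array and weighs most in this sum. In siBRG1 cells Ank1 differed from siScramble by -1.18 (limma adjusted p = 0.215). Car2, a carbonic anhydrase, differed by 1.18 (limma adjusted p = 0.271) and was the 1 of the 5 above 0. The sum takes all 10 markers on the table, of which 2 to 6 were detected on an array, so background is part of it.

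Of 21 genes of the neuronal cytoskeleton beside the members, 12 of 16 on the table were tested. Stmn1 and Stmn2, the microtubule-destabilizing stathmins, fell in DM against GM by 1.32 (limma adjusted p = 0.0101) and by 0.94 (limma adjusted p = 0.0261), and Stmn2 rose by 1.06 in siBAF60b over DM (limma adjusted p = 0.0478). Against siScramble 0 of the 12 were called by limma in any knockdown, with 1 to 3 at an unadjusted p under 0.05. The partner subunit gene Nefl and the related filament gene Prph were detected on no array. Of 8 growth cone genes tested, 4 fell and 2 rose in DM against GM, where 8.93% of all genes were called lower and 10.5% higher. The guidance receptor Nrp1 fell by 1.93 (limma adjusted p = 0.00011), the ephrin Efnb2 by 1.73 (limma adjusted p = 0.0111, at least 2.44-fold lower), the netrin receptor Unc5b by 1.54 (limma adjusted p = 0.0101, at least 1.59-fold lower) and the semaphorin Sema3a by 1.14 (limma adjusted p = 0.00769). In siBAF60b over DM, Efnb2 rose by 1.80 (limma adjusted p = 0.0347, at least 2.56-fold higher) and Nrp1 by 1.07 (limma adjusted p = 0.0343), and the adhesion gene Ncam1 fell by 1.61 (limma adjusted p = 0.00553). Against siScramble 0 of these 8 were called by limma in any knockdown, with 0 or 1 at an unadjusted p under 0.05.

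Of 19 neuron markers, 10 were tested and 1 was called in any of the 5 comparisons. Eno2, the neuronal enolase, fell by 1.55 in siBAF60b against DM (limma adjusted p = 0.0344). Elavl2 and Slc32a1 were detected on no array and Rbfox3 and Snap25 on 1 each, as was Dcx, which is on another list. The summed linear level of the neuron markers was 650 to 743 on the siBRG1 arrays, 898 to 933 on the siBAF60c arrays, 885 to 923 on the siBAF60b arrays, 837 to 966 on the siScramble arrays, 778 to 1213 in DM and 702 to 797 in GM. That sum takes all 15 markers on the table, of which 2 to 7 were detected on an array, so background is part of it. REST and its partners, which repress neuronal genes in other cells, gave 0 calls by limma among 7 genes tested in each of the 5 comparisons, and 1 gene at an unadjusted p under 0.05, in DM against GM. Rest itself was detected on 1 array each of siBAF60c and siScramble.

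Among retinoid genes, 4 of 11 tested were called between DM and GM, where 19.4% of all genes were called. Between DM and GM, Rdh5, a retinol dehydrogenase, rose by 2.41 (limma adjusted p = 1.08e-05), Crabp2, the sister gene of Crabp1, by 1.26 (limma adjusted p = 0.0165) and the receptor Rxrb by 0.93 (limma adjusted p = 0.046). Fabp5, a fatty acid and retinoic acid carrier, fell by 2.17 (limma adjusted p = 0.000706, at least 3.45-fold lower) and rose by 1.59 in siBAF60b over DM (limma adjusted p = 0.0267, at least 2.30-fold higher). Against siScramble 0 of the 11 were called by limma in any knockdown, with 0 to 2 at an unadjusted p under 0.05. Crabp2 read 8.64 and 8.56 in siBRG1 cells against 9.42 and 8.59 in siScramble cells, a difference of -0.41 where Crabp1 stood higher.

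Of 8 other late cornified envelope genes on the table, 5 were tested, and 0 were called by limma or had an unadjusted p under 0.05 in any of the 5 comparisons. Their median difference was -0.12 in siBRG1 and -0.29 in siBAF60c against siScramble, where the median of all genes was 0.01 and 0.00. Of 11 epidermal genes tested from 38, Lor, which encodes loricrin of the cornified envelope, fell by 2.52 in DM against GM (limma adjusted p = 1.44e-05, at least 4.13-fold lower), as Lce1g did. Krt14, a basal keratin, fell by 1.34 (limma adjusted p = 0.00243). Lor rose by 1.05 in siBAF60b over DM (limma adjusted p = 0.0446, at least 1.49-fold higher). The desmosome gene Pkp1 fell by 1.82 in siBRG1 against siScramble (limma adjusted p = 0.0426), the 1 gene of all these lists called against siScramble. That call depended on the processing. It was lost with no background correction (limma adjusted p = 0.063), the authors' deposited values (limma adjusted p = 0.0509) and median scaling (limma adjusted p = 0.905), among other settings. Krt6a, Krt15, Krt18 and Sprr3 were detected on no array, and the summed linear level of the epidermal markers ranged from 2719 to 2958 on the siBRG1 arrays and from 2910 to 3324 on the siScramble arrays. This sum takes all 23 markers on the table, of which 5 to 9 were detected on an array, so background is part of it.

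**Figure D4:**
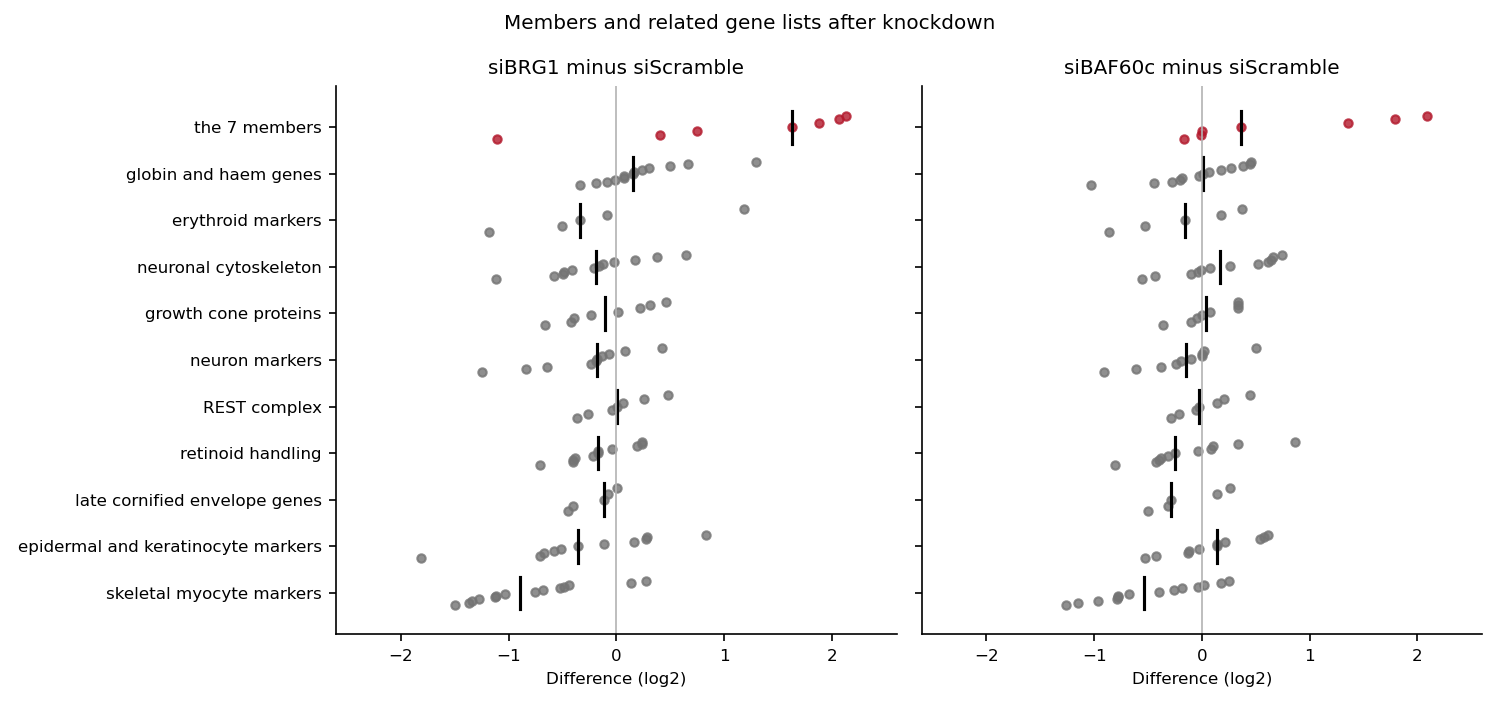
Log2 difference from siScramble for each tested gene of the lists (grey points, 1 row per list) and for the 7 members (red points, top row), in siBRG1 cells on the left and siBAF60c cells on the right, with a black bar at the median. The members' medians are 1.63 and 0.36, values that chose the genes, while the related lists lie around 0 and the myocyte markers below it.

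Many of the list calls depend on single arrays or on the processing. In DM against GM, of 16 named list genes, 6 lost the call without DM replicate 2, 5 without GM replicate 1, 6 without GM replicate 2 and 1 without DM replicate 1, as did 5 with median scaling, 8 with array weights and 9 with only the 2 groups compared. Ank1, Nrp1, Rdh5, Fabp5, Lor and Krt14 were called under all 17 alternatives. In siBAF60b against DM, of 7 named list genes, 6 lost the call without siBAF60b replicate 1, 7 without siBAF60b replicate 2 and 5 without DM replicate 2. All 7 lost it with median scaling, with array weights and with only the 2 groups compared, and 5 with every kept probe.

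The myocyte markers were summed as well, as a description. The summed linear level of 14 myocyte markers, among them Ckm, Acta1 and Myog, was 30568 to 35163 on the siBRG1 arrays, 33163 to 55193 on the siBAF60c arrays, 43506 to 53213 on the siBAF60b arrays, 52973 to 63115 on the siScramble arrays, 89052 to 123739 in DM and 12896 to 14212 in GM. On 3 of their 4 arrays the groups highest in Hba-a1, siBRG1 and siBAF60c, had a lower myocyte sum than both siScramble arrays. Both siScramble arrays had a lower one than DM. GM cells had the lowest sums and also the lowest Hba-a1 and Map2 means (5.66 and 5.15). Within differentiation medium, the Hba-a1 means were 6.21 in DM, 9.15 in siScramble, 9.74 in siBAF60b, 11.24 in siBAF60c and 11.21 in siBRG1 cells. The myocyte sums there ran roughly the other way, with some overlap among the siRNA groups. Map2 did not follow that order, with means of 5.88 in DM, 7.87 in siScramble and 6.76 in siBRG1 cells. Of the 14 markers 0 were called by limma against siScramble in any knockdown, with 9 in siBRG1, 3 in siBAF60c and 0 in siBAF60b at an unadjusted p under 0.05 and median differences of -0.90 in siBRG1, -0.54 in siBAF60c and -0.34 in siBAF60b. In bulk RNA, more cells with a transcript and more transcript per cell cannot be told apart, and the part of transfection or of slower differentiation in the members' levels was not tested.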

How the data were processed

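The members and gene lists were chosen with earlier results of these data known. Per the file headers, each of the 12 arrays has 45281 probes in the deposited scanner table, every one with an intensity on a linear scale and a p-value of detection, from 500 ng of RNA labelled with Cy3 per the labels. The deposited processed table holds 23165 of these probes as linear intensity, and the sources used here do not name the authors' software.

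The function neqc (limma 3.58.1, R 4.3.3, offset 16) removed background estimated from the detection p-values, applied quantile normalization and took log2. A probe needed detection at p under 0.05 on 2 or more arrays, which 17565 had, and the brightest probe of each gene was used (10346 genes). One lmFit and eBayes model covered all 6 groups (6 residual and 8.17 prior degrees of freedom), with Benjamini-Hochberg adjustment over all genes and a threshold of 0.05. Probe names came from the platform annotation: 19589 probes had 1 gene name, 8 several and 3568 none. Named list genes were those called in DM against GM or siBAF60b against DM, at most the 4 largest per list and comparison, or called against siScramble. The text adds Car2 and undetected genes, chosen after their values were seen. "At least" folds set the brighter mean against the lowest detected level on the dimmer arrays. The number of arrays limits the precision: the median standard error of a difference was 0.31. With 2 arrays against 2 the smallest exact permutation p is 0.333. Alternatives covered background, normalization, filter, probe choice, BeadChip, replicate number, array weights, samples in the fit and each array left out.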

Additional observations from a re-analysis of the deposited data

Results flagged for a closer look

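Lce1g, the late cornified envelope gene, lay on opposite sides of siScramble in different knockdowns. Both siBRG1 arrays (5.10 and 5.65) were above both siScramble arrays (4.97 and 4.96). Both siBAF60c arrays (4.96 and 4.64) and both siBAF60b arrays (4.73 and 4.53) were below them. The siBRG1 mean exceeded that of siBAF60c by 0.57 and that of siBAF60b by 0.75 on the log2 scale. The difference was not tested, because siBRG1 and siBAF60c were used to choose the genes and siScramble may have been. Of these 8 values only siBRG1 replicate 2 was detected, so the order lies within background.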

How the results depend on the processing

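Over 17 alternatives, the count of members called stayed at 1 in DM against GM and at 0 in siBAF60b against siScramble. Lce1g in DM against GM (-4.65 to -2.09) and Hba-a1 in siBAF60b against DM (2.29 to 3.72) were called in all 17. In siBAF60b against DM the count of 2 became 1 with median scaling, array weights or only the 2 groups compared, 3 with the BeadChip as a fixed or random block, and 1 to 2 with an array left out, and Map2 was called in 11 of 17 (limma adjusted p 0.0059 to 0.213). In siBRG1 against siScramble the count of 4 became 1 with no background correction or the authors' deposited values, 2 with offset 50, every kept probe or the BeadChip as a fixed block, 0 with median scaling and 0 to 1 with an array left out. In siBAF60c against siScramble the count of 1 became 0 with median scaling, every kept probe or only the 2 groups compared, 2 with the BeadChip as a random block or array weights, and 0 with any array left out. In the comparisons with a test, signs turned for uncalled values. Hba-a1 in DM against GM was -0.0555 with median scaling. Crabp1 in DM against GM was -0.008 to 0.6155 with an array left out, the low end without DM replicate 2. Lce1f in siBAF60b against DM was -0.0796 to 0.8915, the low end without siBAF60b replicate 1. Against siScramble, Map2, Crabp1 and Lce1f in siBAF60c and Nefm and Gap43 in siBAF60b also changed sign with an array left out. The cause was not tested.

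Same-numbered arrays deviated together weakly, with correlations of -0.04 to 0.33 over the 15 pairs of groups, so the numbers were not taken to pair the arrays. With the replicate block, Gap43 passed in siBAF60b against DM (1.22, limma adjusted p = 0.0303), the counts of members called were 1 in DM against GM, 3 in siBAF60b against DM, 3 in siBRG1 and 1 in siBAF60c against siScramble and 0 in siBAF60b against siScramble, and all genes called in siBAF60b against DM numbered 465.

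Over all genes, siBAF60b against DM gave 357 calls as reported, 15 with median scaling, 49 with array weights, 24 with only the 2 groups compared, 150 without DM replicate 2, 2567 without DM replicate 1, 76 without siBAF60b replicate 1 and 67 without siBAF60b replicate 2. DM against GM gave 2010 as reported, 947 with array weights, 730 with only the 2 groups compared, and 937 to 3471 with an array left out. In siBRG1 against siScramble 29 became 46 with the BeadChip as a random block, 133 with array weights, 0 with median scaling and 1 to 3 with an array left out. In siBAF60c against siScramble 1 became 0 to 5, and in siBAF60b against siScramble 1 became 0 to 6. Median scaling moved the median of all genes to 0.32 in siBRG1 against siScramble, 0.17 in siBAF60b against siScramble, and -0.48 in DM against GM, where 1369 genes were called, 199 of them higher, against 1086 of 2010 as reported. Crabp1, Lce1f, Lce1g and Nefm lay near the detection limit in most groups, which limits what can be seen of them.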
